A study of Mus musculus with 10 samples.

Results

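Cholesterol synthesis enzymes were measured in the livers of mice that had received maltose or 1 of 2 doses of ethanol. The set holds 9 enzymes of the pathway, taken in pathway order as Hmgcs1, Mvd, Idi1, Fdps, Fdft1, Sqle, Lss, Cyp51 and Dhcr7. They were chosen by gene symbol, through the RefSeq accession that the array files give for each probe. Of the 9, 8 had a probe with a matching accession, 14 probes in all among 41174, and all 8 were among the 26124 genes tested. No probe was matched to Idi1, so no value is given for it.

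The mice were male C57BL/6N. The control group (3 arrays) was gavaged with maltose that carried the calories of a 5 g/kg ethanol dose, and the other groups were gavaged with ethanol at 5 g/kg (4 arrays) or 7 g/kg (3 arrays). The maltose was therefore matched in calories to the lower dose and not to the higher one, and neither the time from gavage to collection nor the age of the mice is given in the labels. Every array carried liver cDNA in Cy5 (red dye) against the same commercial mixed mouse RNA in Cy3 (green dye), and every value below is the log2 ratio of liver over that reference. Replicates of a group carry numbers, yet no label says that each came from its own animal, so p-values here describe the scatter between arrays, which may be technical.

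Liver is a main site of cholesterol synthesis. Acetyl-CoA units are joined to HMG-CoA, reduced to mevalonate, turned into isoprenoids, condensed to squalene, and then folded and trimmed through lanosterol to cholesterol. When sterols in the endoplasmic reticulum are low, the escort SCAP carries the transcription factor SREBP-2 to the Golgi, where it is cut. The freed part enters the nucleus and raises the genes of this pathway. INSIG proteins hold the uncut factor back when sterols are plentiful.

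At 7 g/kg the enzymes did not move 1 way. Compared with maltose, Fdps (3.45-fold), Dhcr7 (2.59-fold), Sqle (1.95-fold) and Cyp51 (1.85-fold) rose, Fdft1 fell 2.26-fold, and Hmgcs1, Mvd and Lss did not pass the test. Thus 4 of the 8 measured enzymes were called higher, against 4.66% of all genes tested, and 1 of 8 was called lower, against 4.35% of all genes (9.01% in either direction; 2-sided limma test with Benjamini-Hochberg adjustment over the 26124 genes, threshold 0.05). At 5 g/kg 1 of 8 was called, Fdft1, which fell, against 1.57% of all genes called lower, 2.23% called higher and 3.8% called in either direction. Between the doses Fdps and Dhcr7 were higher at 7 than at 5 g/kg, 2 of 8, against 0.662% of all genes called higher, and none was lower, against 0.907%. The median log2 change over the 8 enzymes was 0.40 at 5 g/kg, 0.47 at 7 g/kg and 0.42 between the doses, beside 0.0026, 0.012 and 0.0046 over all genes tested. The comparisons share arrays, so they are not independent of each other.

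**Figure D1:**
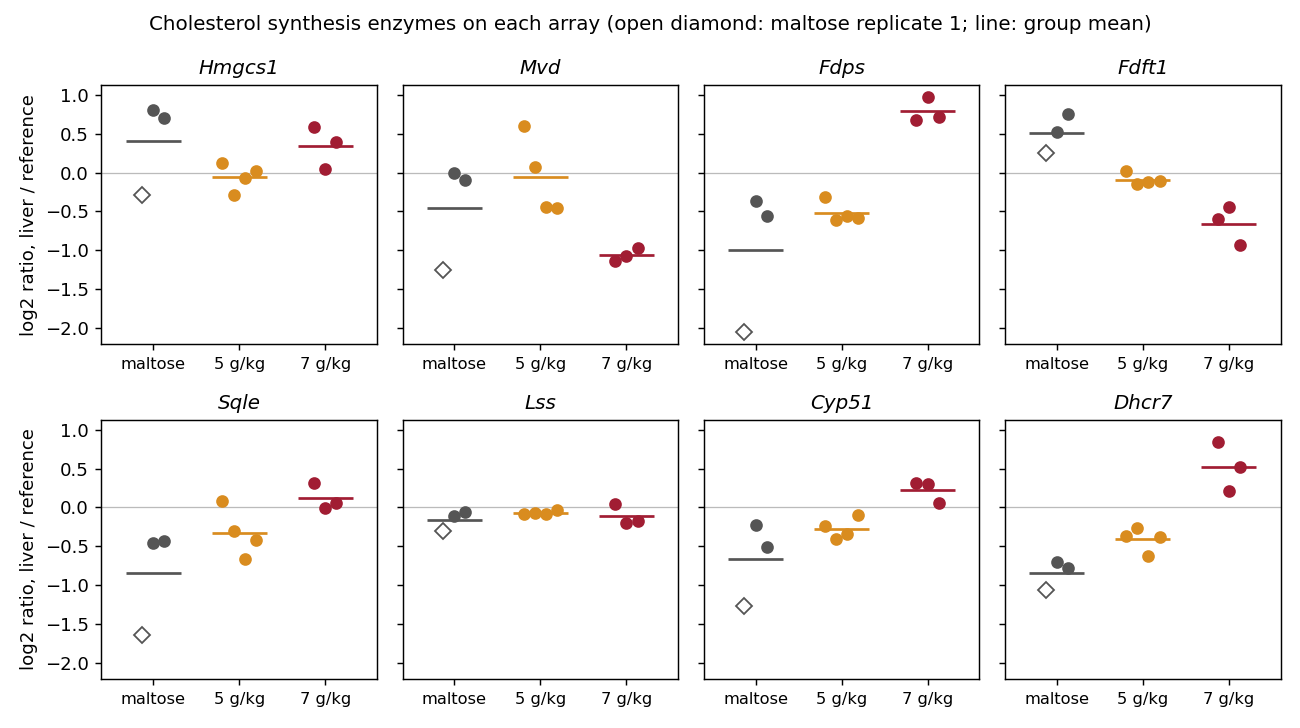
Log2 ratio of liver over reference RNA (vertical axis) for the 8 measured enzymes on each of the 10 arrays, in pathway order, with maltose, 5 g/kg and 7 g/kg along the horizontal axis. Points are single arrays in replicate order, lines are group means, and the open diamond is maltose replicate 1, which lies below the other maltose arrays for every enzyme. Fdps and Dhcr7 at 7 g/kg lie above every other array, and Fdft1 steps down from maltose to 5 g/kg to 7 g/kg.

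The first maltose array stood apart for these genes. It was the lowest of the 3 maltose arrays for 8 of 8 enzymes, while it was the lowest for 33.5% of the 25385 genes measured on all 3. Its distance below the mean of the other maltose arrays was 1.60 for Fdps, 1.21 for Mvd, 1.20 for Sqle, 1.05 for Hmgcs1, 0.90 for Cyp51, 0.38 for Fdft1, 0.31 for Dhcr7 and 0.22 for Lss on the log2 scale, and the gap between those other arrays was 0.03 to 0.29. Over all genes the median distance from the mean of the other maltose arrays was 0.12 for replicate 1, 0.122 for replicate 2 and 0.135 for replicate 3. The share of genes over 1 log2 unit from that mean was 0.126%, 0.0591% and 0.0945% in the same order, and the share at least 1 unit below it was 0.0748%, 0.0158% and 0.0197%. It shared its slide with 5 g/kg replicate 1 alone. Values without it are given for each of the 8 enzymes, and changed calls against maltose are given for the other genes of the pathway and its regulators. The array was singled out by these same values, so each enzyme's change against maltose without it is lower by the choice alone. The p-values without it describe the data and are no independent test. The cause of the low values of that array was not tested.

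**Figure D2:**
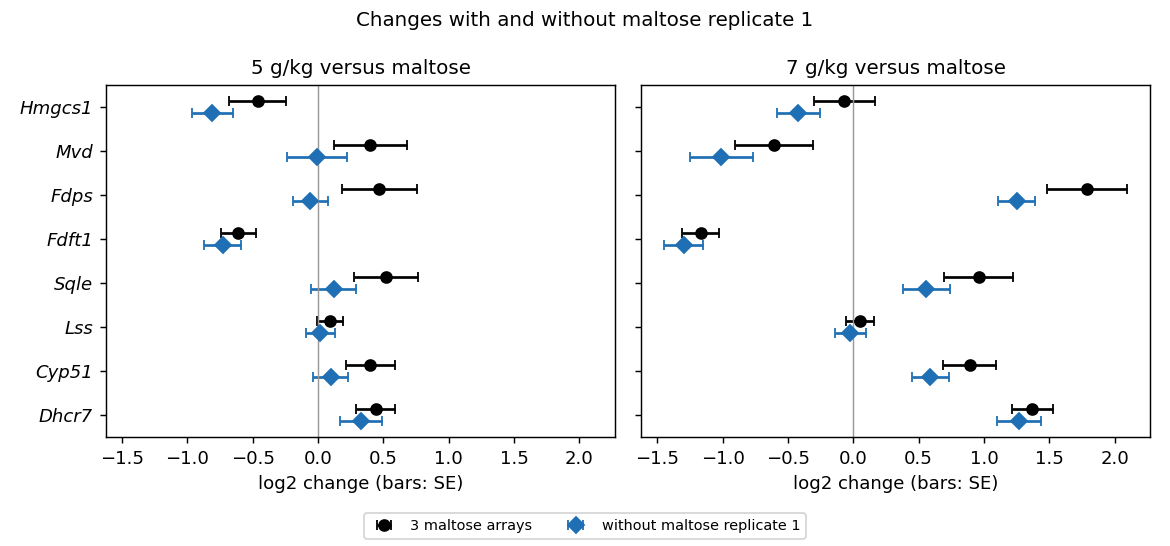
Log2 change of each enzyme against maltose (horizontal axis, bars are SE) at 5 g/kg and at 7 g/kg, from all arrays (black circles) and without maltose replicate 1 (blue diamonds). Without that array every change moves to the left, Fdps at 5 g/kg from 0.47 to -0.06 and Fdps at 7 g/kg from 1.79 to 1.25, while Fdft1 stays on the left and Dhcr7 on the right.

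Without that array the counts became 3 enzymes higher (Fdps, Cyp51 and Dhcr7) and 2 lower (Fdft1 and Mvd) at 7 g/kg, with 5.76% of all genes called in either direction. At 5 g/kg they became 0 higher and 2 lower (Fdft1 and Hmgcs1), with 1.8% of all genes called. Between the doses they became 2 higher (Fdps and Dhcr7) and 2 lower (Fdft1 and Mvd), with 1.47% called. That comparison uses no maltose array, so its changes stayed the same, Fdft1 at -0.57 and Mvd at -1.0. What changed was the spread pooled over the 3 groups. The SE went from 0.134 to 0.124 for Fdft1 and from 0.28 to 0.204 for Mvd. The median change over the 8 enzymes was then 0.0047 at 5 g/kg and 0.27 at 7 g/kg. Without it Fdft1 changed by -0.73 at 5 g/kg and -1.30 at 7 g/kg (limma adjusted p = 0.0157 and 0.000211), and Dhcr7 by 0.33 and 1.27 (adjusted p = 0.449 and 0.000681). Lss then changed by 0.016 at 5 g/kg and -0.023 at 7 g/kg (limma adjusted p = 0.985 and 0.971). Mvd then gave -0.007, Sqle 0.12 and Cyp51 0.098 at 5 g/kg, and Hmgcs1 gave -0.42 at 7 g/kg, none of which passed (limma adjusted p = 0.998, 0.897, 0.889 and 0.199).

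Hmgcs1, the cytosolic HMG-CoA synthase that commits acetyl units to the pathway, read -0.29, 0.81 and 0.70 in the maltose group, 0.12, -0.29, -0.069 and 0.027 in the 5 g/kg group, and 0.59, 0.045 and 0.39 in the 7 g/kg group. The maltose arrays thus spread more widely than both ethanol groups together. The log2 change was -0.46 ± 0.218 (SE) at 5 g/kg (limma adjusted p = 0.329) and -0.068 ± 0.233 at 7 g/kg (adjusted p = 0.929). Without the first maltose array it fell by 0.81 at 5 g/kg (limma adjusted p = 0.0162), the 1 setting of 22 in which it passed (range of adjusted p 0.0162 to 0.721). A second Hmgcs1 probe gave -0.22 and -0.16 and did not pass either (limma adjusted p = 0.764 and 0.836).

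Mvd, which decarboxylates mevalonate diphosphate to isopentenyl diphosphate, the first isoprenoid, was measured at -1.26, 0.00078 and -0.096 in the maltose group. At 5 g/kg it read 0.60, 0.07, -0.44 and -0.45, and at 7 g/kg -1.14, -1.07 and -0.97. The 7 g/kg arrays were close together and below every 5 g/kg array, but the first maltose array lay lower still. Against maltose the log2 change was 0.40 ± 0.28 (SE) at 5 g/kg and -0.61 ± 0.299 at 7 g/kg, and between the doses -1.0 ± 0.28; none passed (limma adjusted p = 0.573, 0.287 and 0.116). Without the first maltose array Mvd fell by 1.01 at 7 g/kg against maltose (limma adjusted p = 0.0275). The step between the doses uses no maltose array and stayed at -1.0. Its SE, pooled over the groups, went from 0.28 to 0.204, and that step then passed (limma adjusted p = 0.0268). These were the only settings of 22 in which either passed (ranges of adjusted p 0.0275 to 0.628 and 0.0268 to 0.528).

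Fdps, the synthase that builds farnesyl diphosphate, the branch point to sterols, dolichol and protein prenylation, showed the widest range of the set. It read -2.06, -0.36 and -0.56 in the maltose group, -0.31, -0.61, -0.56 and -0.59 in the 5 g/kg group, and 0.68, 0.98 and 0.72 in the 7 g/kg group. All 3 arrays of 7 g/kg lay above all 7 others, and the 5 g/kg arrays lay close to the higher maltose arrays. Fdps rose by 1.79 ± 0.308 (SE) on the log2 scale at 7 g/kg against maltose (limma adjusted p = 0.00188) and by 1.31 ± 0.288 against 5 g/kg (adjusted p = 0.0338). At 5 g/kg the change was 0.47 ± 0.288 (limma adjusted p = 0.489). The rise against maltose passed under all 22 alternative settings (1.25 to 2.11; range of adjusted p 0.000187 to 0.021), the lowest value being that without the first maltose array. The rise against 5 g/kg passed in 10 of 22 (1.16 to 1.40; range of adjusted p 0.000127 to 0.184); leaving out any single ethanol array ended that call.

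The arrays were spread over 4 slides, and differences could be taken within a slide. For Fdps, 7 g/kg exceeded maltose by 1.29 and 1.03 on the 2 slides that held both, and exceeded 5 g/kg by 1.54, 1.32 and 1.29 on the 3 slides that held both. With slide as a block the log2 change was 1.59 against maltose (limma adjusted p = 0.0143) and 1.16 against 5 g/kg (adjusted p = 0.0987), so the latter call was lost. For 5 g/kg against maltose the within-slide differences of Fdps were 1.75 on the slide of the first maltose array, and -0.028 and -0.26 on the others.

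Fdft1, the squalene synthase that joins a pair of farnesyl diphosphates in the first step reserved for sterols, moved the opposite way to Fdps and Sqle, the steps before and after it. It read 0.26, 0.53 and 0.76 in the maltose group, 0.018, -0.14, -0.12 and -0.11 in the 5 g/kg group, and -0.60, -0.44 and -0.93 in the 7 g/kg group. The 3 groups did not overlap, with maltose on top and 7 g/kg at the bottom. Fdft1 fell by 0.61 on the log2 scale at 5 g/kg (SE 0.134, limma adjusted p = 0.0209) and fell by 1.17 at 7 g/kg (SE 0.143, adjusted p = 0.000136). The step between the doses was -0.57 ± 0.134 and missed the threshold (limma adjusted p = 0.0502).

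The fall of Fdft1 at 7 g/kg passed under all 22 settings (-1.30 to -0.63), and that at 5 g/kg under 15 of 22 (range of adjusted p 0.0128 to 0.361). Leaving out maltose replicate 2 or 3, or 5 g/kg replicate 2 or 3, ended the latter call (limma adjusted p = 0.0705, 0.115, 0.0532 and 0.0524). Within slides Fdft1 was lower than maltose by every pair: -1.69 and -1.13 for the higher dose, and -0.87, -0.25 and -0.67 for the lower dose. A second, dimmer Fdft1 probe did not pass: its changes were 0.015 at 5 g/kg and -0.077 at 7 g/kg (limma adjusted p = 0.973 and 0.804), and its 7 g/kg arrays, at -0.19, 0.018 and -0.041, overlapped its maltose arrays, at -0.082, -0.11 and 0.21. The raw liver signal of that probe was 124.5 to 216 over the arrays, against 421 to 996 for the probe used, and both were well above background on all 10 arrays. The fall of Fdft1 thus rests on 1 of its 2 probes. Which transcripts each probe detects was not tested.

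Sqle, the squalene epoxidase and a rate-limiting step of the sterol branch, was read at -1.65, -0.46 and -0.43 in the maltose group, 0.087, -0.30, -0.66 and -0.42 in the 5 g/kg group, and 0.31, -0.0061 and 0.059 in the 7 g/kg group. The 7 g/kg arrays lay above all maltose arrays but overlapped the highest 5 g/kg array. Sqle rose by 0.96 ± 0.264 (SE) at 7 g/kg (limma adjusted p = 0.0339), and the changes of 0.52 ± 0.247 at 5 g/kg and 0.44 ± 0.247 between the doses did not pass (adjusted p = 0.334 and 0.584). Without the first maltose array the value at 7 g/kg was 0.56 and no longer passed (limma adjusted p = 0.102), and leaving out any single 7 g/kg array also ended the call. It was likewise lost with slide as a block (0.98, limma adjusted p = 0.073). Over 22 settings it passed in 13 (0.56 to 1.17; range of adjusted p 0.0167 to 0.118).

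Lss, which folds squalene epoxide into lanosterol, the first sterol ring system, lay between -0.30 and 0.05 on all 10 arrays, and its groups overlapped. Its log2 change was 0.089 at 5 g/kg (95% interval of the difference -0.13 to 0.30) and 0.049 at 7 g/kg (-0.18 to 0.28). A second Lss probe gave -0.0072 and 0.16. None of these passed (limma adjusted p = 0.759 and 0.879 for the probe used, 0.988 and 0.488 for the second).

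Cyp51, the lanosterol demethylase, was measured at -1.27, -0.22 and -0.51 in the maltose group. It read -0.24, -0.41, -0.34 and -0.099 in the 5 g/kg group, and 0.31, 0.30 and 0.051 in the 7 g/kg group. Every 7 g/kg array lay above every maltose and every 5 g/kg array. Cyp51 rose by 0.89 ± 0.2 (SE) at 7 g/kg (limma adjusted p = 0.0109), and by 0.59 without the first maltose array (adjusted p = 0.0263; range over 22 settings 0.0029 to 0.0632, passing in 21). The changes of 0.40 at 5 g/kg and 0.49 between the doses did not pass (limma adjusted p = 0.328 and 0.31). A further Cyp51 probe of like brightness rose by 1.03 at 7 g/kg (limma adjusted p = 0.00712), while the dimmest of its 3 probes gave 0.17 (adjusted p = 0.607) with overlapping groups.

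Dhcr7, the reductase of the last step to cholesterol, had the smallest adjusted p of the 8 at 7 g/kg. It read -1.06, -0.70 and -0.78 in the maltose group, -0.37, -0.26, -0.63 and -0.38 in the 5 g/kg group, and 0.85, 0.21 and 0.52 in the 7 g/kg group. No group overlapped another, with maltose lowest and 7 g/kg highest. Dhcr7 rose by 1.37 ± 0.156 (SE) at 7 g/kg against maltose (limma adjusted p = 7.89e-05) and by 0.93 ± 0.146 against 5 g/kg (adjusted p = 0.00442), and at 5 g/kg the change of 0.44 ± 0.146 did not pass (adjusted p = 0.132).

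The rise of Dhcr7 at 7 g/kg passed under all 22 settings (1.21 to 1.53), and that between the doses under 21 of 22 (range of adjusted p 0.00154 to 0.0538). With slide as a block its change at 5 g/kg was 0.52 and passed (limma adjusted p = 0.0219), the 1 setting of 22 in which it did (range of adjusted p 0.0219 to 0.449). Within slides Dhcr7 at 5 g/kg exceeded maltose by 0.41, 0.69 and 0.44, and at 7 g/kg by 1.30 and 1.55. Its second probe rose by 1.46 at 7 g/kg against maltose (limma adjusted p = 1.87e-05) and by 1.00 against 5 g/kg (adjusted p = 0.00119).

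**Figure D3:**
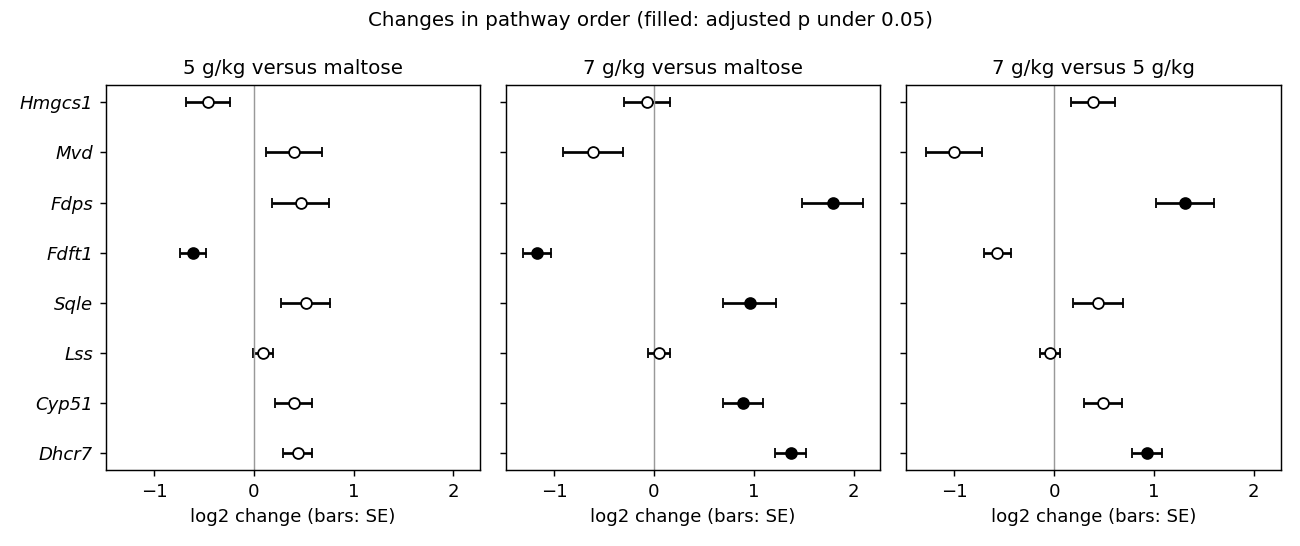
Log2 change (horizontal axis, bars are SE) of the 8 measured enzymes in pathway order for 5 g/kg against maltose, 7 g/kg against maltose and 7 g/kg against 5 g/kg; filled points have an adjusted p under 0.05. Fdft1 is the 1 filled point at 5 g/kg; at 7 g/kg Fdps, Sqle, Cyp51 and Dhcr7 are filled on the right and Fdft1 on the left.

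Of the 8 enzymes, 5 had groups that did not overlap for 7 g/kg against maltose, 4 of them higher and 1 lower, while 25.4% of all genes did not overlap (13.1% higher and 12.3% lower). For 5 g/kg against maltose it was 2 enzymes, Dhcr7 higher and Fdft1 lower, against 16.9% of all genes (9.29% higher and 7.65% lower). Between the doses it was 5 enzymes, with Fdps, Cyp51 and Dhcr7 higher and Mvd and Fdft1 lower at 7 g/kg, against 11% of all genes (4.87% higher and 6.13% lower).

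The promoters of the enzymes were searched for 3 motifs of sterol-regulated genes on both strands: TCACNCCAC, the core of the sterol regulatory element that SREBP binds, CCAAT, the box of its partner NF-Y, and GGGCGG, the GC box of Sp1. The RefSeq promoter table (GRCm38.p6) held 8 windows for 6 of the 9 members, 3 of them for Dhcr7, and the 250 bases before each start were read. The sterol element core occurred in 1 of the 8, that of Hmgcs1, where it begins 137 bases before the start, and in 1.05% of all 32851 windows. CCAAT occurred in 6 of 8 (33.8% of all windows) and GGGCGG in 7 of 8 (32.7%). The windows below are those of Hmgcs1, with that match, and of Cyp51 and Dhcr7, without it. Only this 1 form of the sterol element was searched, and Fdps, Fdft1 and Sqle had no window. A window without a match may thus hold another form of the element, and no link to the changes was tested. They run 5′ to 3′ toward the start, matches on either strand are in capitals, and none of the matches overlap. The Hmgcs1 window is chr13:119690101-119690350 on the plus strand, and the Cyp51 window chr5:4104698-4104947 on the minus strand. The printed Dhcr7 windows are chr7:143822917-143823166 and chr7:143829964-143830213 on the plus strand.
Hmgcs1: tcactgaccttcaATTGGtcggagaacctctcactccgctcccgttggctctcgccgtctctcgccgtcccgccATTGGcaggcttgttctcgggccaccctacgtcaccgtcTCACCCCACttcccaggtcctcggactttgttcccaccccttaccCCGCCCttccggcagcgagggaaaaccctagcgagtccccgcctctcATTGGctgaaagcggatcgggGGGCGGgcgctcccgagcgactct
Cyp51: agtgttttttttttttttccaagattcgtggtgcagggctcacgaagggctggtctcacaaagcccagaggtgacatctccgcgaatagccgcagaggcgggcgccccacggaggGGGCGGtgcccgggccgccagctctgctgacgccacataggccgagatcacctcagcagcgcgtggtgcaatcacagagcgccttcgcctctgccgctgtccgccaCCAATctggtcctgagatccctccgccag
Dhcr7, first start: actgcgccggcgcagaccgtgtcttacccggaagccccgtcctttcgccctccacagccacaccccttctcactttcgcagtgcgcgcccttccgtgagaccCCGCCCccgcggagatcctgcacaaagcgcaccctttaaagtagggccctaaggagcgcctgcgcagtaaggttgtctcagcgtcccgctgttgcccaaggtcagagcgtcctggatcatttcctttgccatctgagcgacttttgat
Dhcr7, downstream start: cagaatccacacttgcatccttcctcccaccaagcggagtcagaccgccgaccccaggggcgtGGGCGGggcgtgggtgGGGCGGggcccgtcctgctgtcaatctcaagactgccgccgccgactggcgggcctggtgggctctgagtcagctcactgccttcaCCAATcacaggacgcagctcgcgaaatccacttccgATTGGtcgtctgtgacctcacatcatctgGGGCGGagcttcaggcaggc
A match is a description of letters in the window and does not show that a factor binds there. The first printed Dhcr7 window held 1 GC box and no CCAAT, and the downstream one held 2 CCAAT boxes and 3 GC boxes. The remaining Dhcr7 window, chr7:143823149-143823398 on the plus strand, held none of the 3 motifs and is not printed.

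The other enzymes listed with the route were also split in direction at 7 g/kg. Of 16 listed, 15 were tested, and at 7 g/kg against maltose 3 rose and 2 fell. Of all genes tested, 4.66% were called higher and 4.35% lower in that comparison. Pmvk, which makes the mevalonate diphosphate that Mvd consumes, rose by 0.99 ± 0.17 (SE, limma adjusted p = 0.00188). Nsdhl, which acts after Cyp51 in removing the methyl groups of lanosterol, rose by 0.92 ± 0.168 (adjusted p = 0.00278), and Tm7sf2, a sterol reductase, by 0.49 ± 0.122 (adjusted p = 0.0225; it lacked 1 value at 5 g/kg). Msmo1, the methyl oxidase that works beside Nsdhl, fell by 1.5 (SE 0.319, limma adjusted p = 0.00804). Acat1, a mitochondrial thiolase of ketone metabolism that was listed with them, fell by 0.78 (SE 0.101, limma adjusted p = 0.000204). Acat2, the cytosolic thiolase of the route, was not tested, since its probe was marked as an outlier on 7 arrays. Apart from Acat1, Msmo1 was thus the only listed enzyme called lower.

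Pmvk arrays at 7 g/kg read 0.87, 0.46 and 0.27, above every maltose array (-0.78, -0.37 and -0.21) and every 5 g/kg array (-0.19, -0.052, -0.44 and -0.09). Msmo1 read -0.27, 1.21 and 1.37 in the maltose group and -0.99, -0.48 and -0.72 at 7 g/kg, so its low maltose array was the first one again. Without it Msmo1 changed by -2.02 at 7 g/kg and by -1.32 at 5 g/kg (limma adjusted p = 4.32e-05 and 0.00188), Tm7sf2 no longer passed at 7 g/kg (0.40, adjusted p = 0.113), and Erg28, a scaffold of the demethylation steps, did (-0.48, adjusted p = 0.0362). None of the 15 passed at 5 g/kg with all arrays, where 3.8% of all genes were called. Between the doses 0.662% of all genes were called higher and 0.907% lower. In that comparison Pmvk (0.73), Tm7sf2 (0.54) and Nsdhl (0.98) were higher and Acat1 (-0.56) lower at 7 g/kg. Of these, Pmvk and Tm7sf2 passed in only 3 and 2 of the 10 fits that left out 1 array. The median change of the 15 was -0.052, 0.0058 and 0.12 in the 3 comparisons. The first maltose array was the lowest of its group for 12 of the 14 that had all 3 values.

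**Figure D4:**
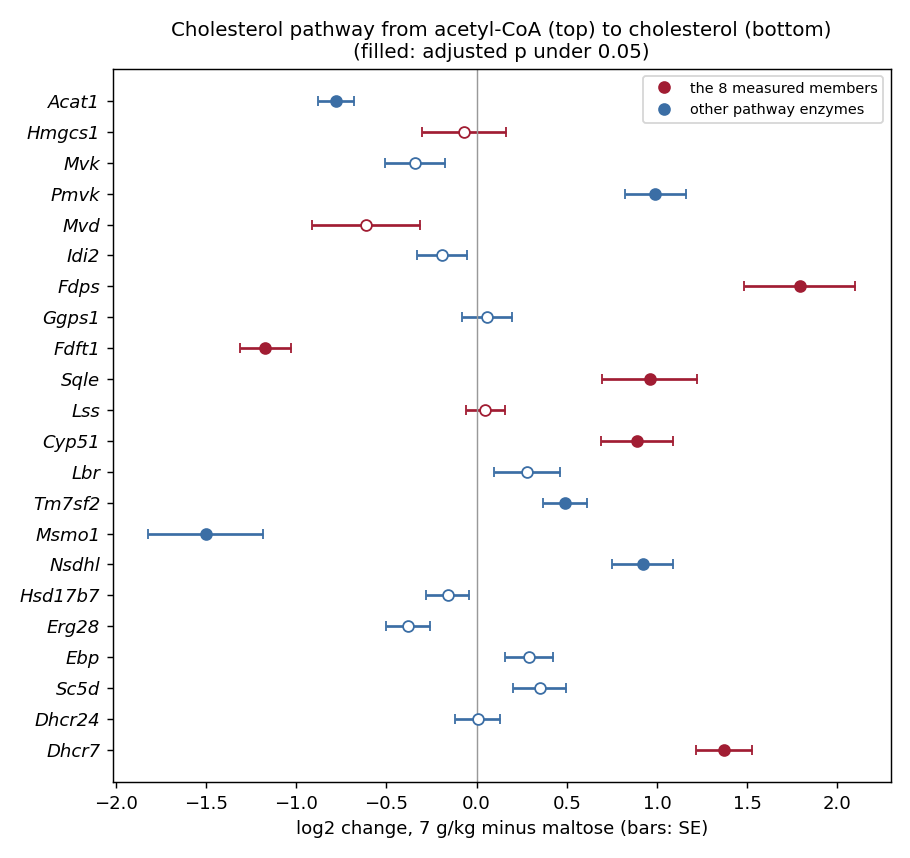
Log2 change at 7 g/kg against maltose (horizontal axis, bars are SE) for 22 tested enzymes listed with the route. They run in order from acetyl-CoA at the top to cholesterol at the bottom, and Acat1, the first, is a mitochondrial thiolase. Red marks the 8 measured members of the set, blue 14 of the others, and filled points have an adjusted p under 0.05. Filled points lie on both sides, Pmvk, Fdps, Sqle, Cyp51, Tm7sf2, Nsdhl and Dhcr7 on the right and Acat1, Fdft1 and Msmo1 on the left.

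Among 18 genes of sterol sensing, uptake and disposal, 16 were tested. At 7 g/kg against maltose 1 rose and 6 fell, where 4.66% of all genes tested were called higher and 4.35% lower. The lower dose gave 1 rise and 3 falls, beside 2.23% of all genes called higher and 1.57% lower. Between the doses none passed, while 0.662% of all genes were called higher and 0.907% lower. In the same order the median change over the 16 was -0.064, -0.082 and -0.042, beside 0.012, 0.0026 and 0.0046 over all genes tested. Insig2, which retains SCAP in the endoplasmic reticulum, rose by 2.45 ± 0.196 (SE) at 5 g/kg and by 2.14 ± 0.235 at 7 g/kg (limma adjusted p = 1.99e-05 and 8.56e-05). Its maltose arrays read -1.63, -2.04 and -2.74, all 4 arrays of 5 g/kg 0.11 to 0.45, and the 2 measured arrays of 7 g/kg 0.058 and -0.047. This rise rests on 1 probe, since a brighter Insig2 probe was marked as an outlier on 8 arrays and was not tested. Insig1, itself an SREBP target, fell by 1.14 at 7 g/kg (SE 0.286, adjusted p = 0.0214), and its change at 5 g/kg was -0.78 (adjusted p = 0.144). A second Insig1 probe gave -0.77 at 7 g/kg and did not pass (limma adjusted p = 0.0551). Srebf2, the gene of SREBP-2, changed by -0.27 at 5 g/kg and -0.49 at 7 g/kg and did not pass (limma adjusted p = 0.464 and 0.103). A second Srebf2 probe gave 0.039 and -0.21 and did not pass either (limma adjusted p = 0.924 and 0.415).

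Cyp7a1, Abcg8 and Abcg5, which act in sterol disposal, passed at both doses. Cyp7a1, the hydroxylase that starts the conversion of cholesterol to bile acids, changed by -1.61 at 5 g/kg and -3.08 at 7 g/kg (limma adjusted p = 0.0229 and 0.000169). These changes rest on 1 probe, which was well above background on 9 of the 10 arrays. A brighter Cyp7a1 probe was marked as an outlier on 5 arrays and was not tested. Abcg8 and Abcg5, the paired transporter that moves sterols into bile, changed by -1.40 and -0.56 at 5 g/kg and by -1.68 and -0.56 at 7 g/kg (adjusted p = 9.51e-05 and 0.0224, then 1.17e-05 and 0.0108; Abcg5 had 2 maltose values). A second Abcg8 probe gave -0.68 and -0.74 (limma adjusted p = 0.0194 and 0.00908). Abcg5 no longer passed at 5 g/kg with slide as a block (-0.54, limma adjusted p = 0.119), nor at either dose with median centring (-0.47 and -0.48, adjusted p = 0.131 and 0.0742). Nr1h3, the sterol-sensing receptor LXR alpha, fell by 0.78 at 7 g/kg (adjusted p = 0.00606). The first maltose array was the lowest of its group for 13 of the 15 of these regulators that had all 3 values. Without it 8 of the 16 passed at 7 g/kg, against 5.76% of all genes. Srebf2 was the one added, at -0.64 (limma adjusted p = 0.0493), close to the threshold. Cyp7a1 no longer passed at 5 g/kg without that array (-1.73, limma adjusted p = 0.06). In the 10 fits that left out 1 array, Insig1 at 7 g/kg and Cyp7a1 at 5 g/kg each passed in 7, and Abcg5 in 6 at 5 g/kg and 9 at 7 g/kg. Srebf2 at 7 g/kg passed in 1 of the 10. The other calls with all arrays named in this group passed in all 10.

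For each enzyme that passed, the gene of nearest pattern was the one among 13571 whose centred log2 ratios had the smallest root mean square difference over the 10 arrays. These were Selenbp2 for Fdps (0.359, beside an SD of Fdps itself of 0.886), Ces1f for Fdft1 (0.156, SD 0.509), Rrm2 for Sqle (0.261, SD 0.548), Arid5a for Cyp51 (0.203, SD 0.456) and Carmil1 for Dhcr7 (0.16, SD 0.607). Selenbp2 rose by 1.87 at 7 g/kg but also by 0.82 at 5 g/kg (limma adjusted p = 3.04e-06 and 0.00378). Its maltose arrays, -1.71, -1.12 and -1.28, were closer together than those of Fdps. Ces1f changed by -0.60 at 5 g/kg and -1.14 at 7 g/kg (limma adjusted p = 0.0379 and 0.000403). These genes were picked for their nearness, so changes like those of the enzymes follow from the choice.

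All 14 member probes were well above background on all 10 arrays, with no saturated or outlier-marked spot. Median liver signal was 121 to 219 per array over a background of 21 to 24, and 67.3% to 86.2% of spots were well above background. All 9 hepatocyte markers on the array were well above background on every array. In whole liver, fewer cells of a type and less RNA per cell cannot be told apart. The summed liver signal of those 9 markers was 552914 to 624503 in the maltose group, 518629 to 619580 at 5 g/kg and 511395 to 547969 at 7 g/kg, with 3 of the 9 called higher and 1 lower at 7 g/kg. The sum of 7 sinusoidal endothelium markers was 2751 to 3101, 3671 to 4299 and 3899 to 3944 in the 3 groups, with 2 of the 7 called higher at 5 g/kg, 3 at 7 g/kg and none lower. That of 7 stellate cell markers was 3411 to 4738, 5157 to 6064 and 4705 to 4878, with 2 of the 7 called higher at 5 g/kg, 1 at 7 g/kg and none lower. Their part in the changes of the enzymes was not tested. The shares of all genes called higher were 2.23% at 5 g/kg and 4.66% at 7 g/kg, and 4.35% were called lower at 7 g/kg. Of all genes called, 582 were higher and 410 lower at 5 g/kg, 1218 and 1137 at 7 g/kg, and 173 and 237 between the doses; with each array centred on its median in place of the loess curve, the splits were 664 and 217, 1334 and 657, and 166 and 151.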

How the data were processed

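Liver RNA on 10 two-colour Agilent mouse arrays was compared with a common reference RNA. Agilent Feature Extraction 11.5.1.1 measured each spot, per the file headers. The deposited median intensity of spot and local background in each channel is not normalized, and the deposited processed intensity is background subtracted and dye normalized. A log10 ratio of red over green was also deposited. The series table holds deposited log2 ratios: no source states the scale, which was read from its slopes of 3.3 to 3.32 against that log10 ratio, and its centring is unknown. Its column medians were 0.062, 0.025 and 0.014 (maltose), -0.042, -0.01, -0.066 and 0.045 (5 g/kg), and 0.014, -0.073 and 0.076 (7 g/kg).

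From the median intensities, normexp background correction (offset 50) and loess within arrays were applied in R 4.3.3 with limma 3.58.1. Control spots and spots marked as outliers (2.42% to 5.83% per array) were left out. Genes needed a probe well above background on at least 3 arrays and at least 2 values per group, and the brightest probe stood for a gene, which left 26124. Missing values were not imputed. One limma fit of the 3 groups was used for each comparison, with p adjusted over all genes at 0.05. Of the probes, 59.2% matched a symbol through RefSeq (GRCm38.p6). Motifs were searched and plots drawn in Python 3.11.15 with pandas 2.3.3 and matplotlib 3.10.9. The limma fit alone was tested on simulated data, with independent noise on each array and no slide effect. The steps before it and the motif search were not tested in this way.

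The members and all lists were chosen with earlier results of these data known. Named were all members, every other pathway enzyme or sterol regulator that passed in a comparison, some genes whatever their result (Srebf2, Insig1 and Insig2 among them), and the nearest gene of each passing member. A few genes under this rule are counted in their lists but not reported here. Marker lists covered hepatocytes, Kupffer cells, sinusoidal endothelium, neutrophils, stellate cells, lymphocytes, cholangiocytes, erythroid cells, exocrine pancreas and adipocytes. Of the Kupffer cell, cholangiocyte, exocrine pancreas and adipocyte markers none passed at 7 g/kg. There 2 of 5 neutrophil, 2 of 7 lymphocyte and 1 of 3 erythroid markers rose, against 4.66% of all genes called higher. Alternatives changed the background correction, source of values, normalization, channel, filter, outlier spots, probe choice, moderation, blocks, threshold and arrays. Single-probe fits were chosen after seeing the data. The number of arrays limits the precision.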

Additional observations from a re-analysis of the deposited data

Results flagged for a closer look

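The groups of 4 arrays at 5 g/kg were searched for a value far from the others in 35 genes, the members, other pathway enzymes and sterol regulators with 4 values. In 1 of them, Fdps, replicate 1 at -0.31 lay apart from -0.61, -0.56 and -0.59, with a gap to the nearest of 0.835 of the group's range, above Dixon's critical value for 4 values. Chance gives such a value in about 1 of 20 groups. That array shared its slide with the first maltose array, which was the lowest of its group for Fdps.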

How the results depend on the processing

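The rises of Fdps and Dhcr7 and the fall of Fdft1 at 7 g/kg against maltose kept direction and threshold under all 22 alternative settings. The second Fdft1 probe, outside those settings, gave -0.077 at 7 g/kg (limma adjusted p = 0.804). For the results that did not hold, the cause was not tested.

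Counts of all genes at 5 g/kg, 7 g/kg and between the doses moved from 992, 2355 and 410 to 120, 592 and 47 with Cy5 alone and to 384, 1178 and 147 at an adjusted p under 0.01. They became 517 and 116 (first and last) with Agilent processed signals, and 584 and 138 with the series table. Leaving out 1 array gave 469 to 1068, 1506 to 2360 and 203 to 423.

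Of the members, 1, 5 and 2 passed. Cy5 alone gave 0, 3 and 1, an adjusted p under 0.01 gave 0, 3 and 1, and slide as a block gave 2, 4 and 1. The mean of a gene's probes gave 0 at 5 g/kg, where Fdft1 was -0.30. Between the doses, processed signals gave 0 and the series values 1. Leaving out 1 array gave 0 to 2 at 5 g/kg and 1 to 4 between the doses.

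Of the other pathway enzymes, 0, 5 and 4 passed. Cy5 alone gave 3 at 7 g/kg and 0 between the doses, where processed signals and the series values gave 1 and slide as a block and an adjusted p under 0.01 gave 2. Leaving out 1 array gave 0 to 1 at 5 g/kg and 2 to 5 between the doses.

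Of the sterol regulators, 4, 7 and 0 passed. At 5 g/kg processed signals, Cy5 alone and an adjusted p under 0.01 gave 2, at 7 g/kg Cy5 alone gave 3, and between the doses median centring, outlier spots kept and slide as a block gave 1. Leaving out 1 array gave 2 to 4 at 5 g/kg and 0 to 2 between the doses.

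Signs turned for small changes. At 5 g/kg Lss was -0.029 with Cy5 alone and -0.0072 by its second probe, Fdft1 0.015 and Cyp51 -0.20 by other probes. Leaving out 1 array gave -0.007 to 0.62 for Mvd and -0.06 to 0.79 for Fdps, the lowest without the first maltose array. At 7 g/kg Hmgcs1 was 0.029 with median centring and -0.42 to 0.13 leaving out 1 array, and Lss -0.029 with Cy5 alone and -0.029 to 0.098. Between the doses Lss was 0.065 as the mean of its probes, 0.17 by its second probe and -0.12 to 0.0055 leaving out 1 array.

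Same-numbered arrays of different groups correlated at -0.21 to 0.20 in their deviations from the group means, over 0.1 in 2 of 9 pairs. Differently numbered arrays correlated at -0.32 to 0.23, over 0.1 in 7 of 24 pairs. Pairing by number was thus not seen, though groups of 3 or 4 arrays cannot exclude it. Arrays of different groups on the same slide correlated at -0.18 to 0.23, over 0.1 in 5 of 8 pairs, against 4 of 25 on different slides. With the replicate number as a block, 921, 2290 and 275 genes and 0, 4 and 1 members passed, and 2 other pathway enzymes passed between the doses. Fits that left out 1 array of 3 kept 2 in that group. Arrays without a value for a gene were dropped from its fit.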
